A study of Drosophila melanogaster with 6 samples.

Results

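The 9 genes described here encode the Toll receptor and the intracellular pathway behind it, namely Tl, Myd88, tub, pll, Pli, Traf6, cact, Dif and dl. They were taken by gene symbol from a table of 15656 genes, and all 9 were among the 13196 genes that passed the filter on low values. Poly(A) RNA was sequenced from adult males 12 h after they had been infected with E. coli, in 3 libraries from flies that overexpress lncRNA-CR33942, a long noncoding RNA, and 3 from controls. The genotype of the former was Gal80ts; Tub>lncRNA-CR33942 and that of the latter Gal80ts; Tub-Gal4/P{CaryP}attP40. The males were 3 to 5 d old, had been raised at 18°C and were held at 29°C for more than 24 h, which releases the ubiquitous Tub-Gal4 driver from its temperature-sensitive repressor Gal80ts. The control flies carry the driver, the repressor and an empty attP40 landing site. Every library came from infected flies, so a change upon infection is not measured. The labels do not say whether the 3 libraries of a genotype came from separate crosses, so the p-values measure only the spread between these libraries.

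In Drosophila, the Toll pathway answers mainly to fungi and Gram-positive bacteria, while Gram-negative bacteria such as E. coli act mainly through the Imd pathway and its NF-κB factor Relish. A proteolytic cascade in the hemolymph cleaves the ligand Spätzle, which binds the receptor Toll. Inside the cell, the adaptors MyD88 and Tube and the kinase Pelle then bring about the destruction of Cactus, an IκB protein that holds the NF-κB factors Dif and Dorsal in the cytoplasm. Much of this signal passes through protein binding, phosphorylation and degradation, none of which is measured by RNA levels.

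The libraries held 16894595 to 19423287 reads in genes. The check of the genotypes was clear, since lncRNA-CR33942, listed as pncr016:2R, had 177 to 210 normalized read counts in the control flies and 4452 to 4914 in the overexpressing flies. A normalized read count is the number of reads of a gene divided by the size factor of its library. Over all 13196 genes tested with limma on log2(normalized read count + 1), 420 were upregulated and 691 downregulated at an adjusted p under 0.05, which is 8.42% of the genes. Without the intensity trend of limma the numbers were 94 and 99, and without control replicate 1 they were 201 and 328.

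All 9 genes lay at the same positions in the deposited table (build dm6) and in the Ensembl 115 annotation of release 6. The NF-κB genes dl (chr2L:17436830-17450364) and Dif (chr2L:17413248-17433161) are neighbours on the minus strand of arm 2L, 3668 bases apart, and the gene of their inhibitor, cact (chr2L:16313036-16326207), lies on the same strand of that arm. Arm 3R holds Tl (chr3R:26799041-26842403), tub (chr3R:4387742-4389813), pll (chr3R:27251131-27253182) and Pli (chr3R:23860162-23890052). Myd88 is on arm 2R (chr2R:9302823-9308722) and Traf6 on the X chromosome (chrX:8154599-8157386). Their structures range from the single exon of Traf6 to the 11 merged exons of dl, which has 6 annotated transcripts, and a count per gene does not tell these transcripts apart.

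The counts of 3 members could include or lack reads of a gene on the opposite strand, since no source used here says whether counting used the strand. The pll gene lies within the span of TfIIA-L, a general transcription factor gene, but shares only 31 of its 1931 exon bases with TfIIA-L exons. The 3' end of cact overlaps fzy over 62 bases and that of Dif overlaps CG15141 over 252 bases. None of these 3 neighbours was called by limma (adjusted p = 0.802, 0.378 and 0.61). Dif also spans the noncoding gene CR44409, which covers no Dif exon.

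Transcripts of all 9 genes were present at moderate levels in these flies. Divided by gene length and library total (FPKM), cact was the most abundant with 45.7 ± 5.86 FPKM (SD over all 6 libraries). Dif followed with 20.3 ± 0.881 FPKM and Myd88 with 17.98 ± 1.11 FPKM. The adaptor gene tub reached 15.2 ± 1.04 FPKM, Pli 14.4 ± 0.451 FPKM and dl 12.8 ± 1.46 FPKM. The kinase gene pll had 11.9 ± 1.096 FPKM, the receptor gene Tl 11.3 ± 1.60 FPKM and Traf6 4.89 ± 0.195 FPKM. The median of all genes tested was 10.1 FPKM, so 8 members lay above it and only Traf6 below.

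The order of these levels was firm at its ends and loose in the middle. The libraries of cact lay above every library of Dif, those of Dif above every library of Myd88, and those of Tl above every library of Traf6. Between these, each neighbouring pair overlapped in range. Myd88 exceeded tub in 6 of 6 libraries, tub exceeded Pli in 5, Pli exceeded dl in 5 and dl exceeded pll in 4. The levels of pll and Tl could not be ordered, with pll higher in 3 of 6 libraries.

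**Figure D1:**
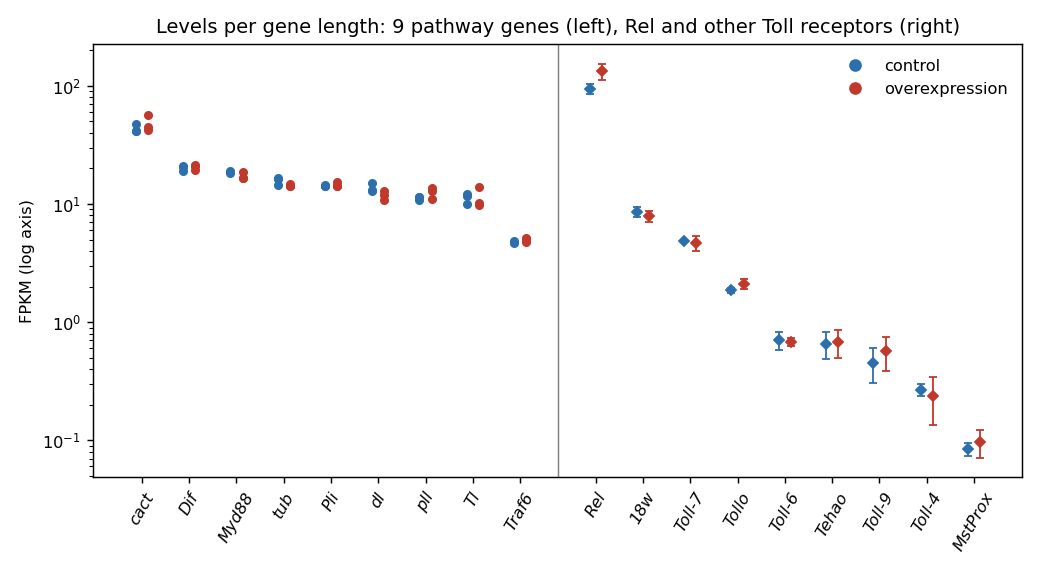
Levels per gene length (FPKM, log axis) in control (blue) and overexpressing (red) flies. Each circle on the left is a library of a pathway gene, and diamonds on the right give the mean ± SD of 3 libraries for Rel and the other Toll receptor genes. The pathway genes span 4.89 to 45.7 FPKM on average, Rel lies above all of them, and Tl lies above each of the other Toll receptor genes in mean level.

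Among the receptors of the Toll family, Tl was the most abundant transcript. 18w followed with 8.64 ± 0.804 FPKM in control flies and 7.87 ± 0.832 FPKM in overexpressing flies, and Toll-7 with 4.86 ± 0.0981 FPKM and 4.68 ± 0.657 FPKM (SD, n = 3 each). Tollo, Toll-6, Tehao, Toll-9, Toll-4 and MstProx lay between 0.0903 and 1.98 FPKM on average. Rel, the gene of Relish, was far above both other NF-κB genes, with 94.0 ± 9.49 FPKM in control flies and 133 ± 20.7 FPKM in overexpressing flies.

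The comparison of the genotypes asked whether the components of the Toll pathway differ in transcript level when lncRNA-CR33942 is overexpressed. None of the 9 genes was called by limma at an adjusted p under 0.05, against 8.42% of all genes tested, and none was called by limma voom, edgeR or DESeq2 on the recovered reads. At an unadjusted p under 0.05, limma gave 3 genes, dl, Myd88 and tub, all lower in the overexpressing flies, where 22.2% of all genes tested had such a p in either direction and 12.4% had it with a lower level. The groups did not overlap for the same 3 genes (33.3%), against 27.3% of all genes tested, made up of 12.9% with overexpression above and 14.4% with overexpression below. This separation depends on the scaling. In FPKM, which divide by the library total, the groups overlapped for all 3, with 12.8 to 15.2 FPKM in control flies and 10.7 to 12.9 FPKM in overexpressing flies for dl. Under that scaling the median of all genes moved to 0.046 on the log2 scale, and only 1 member had an unadjusted p under 0.05 in limma. The median log2 fold change of the 9 genes was -0.021, beside 0.0059 for all genes tested, and 3 of the 9 values were above 0. The summed level of the 9 genes was 150 to 159 FPKM in control flies and 146 to 168 FPKM in overexpressing flies.

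The intervals of limma also put limits on a difference, but these limits depend on its intensity trend. With the trend, the 95% intervals were 1 per gene and not adjusted for the 9 genes. They ran from a 24.9% lower level at the low end for dl to a 22.6% higher level at the high end for cact. The narrowest interval was that of Dif, from -8.5% to 8.19%, with 1825 to 2270 reads per library. Traf6, with 221 to 265 reads per library, had an interval from -11.5% to 16.7%. On the log2 scale, the interval of cact was -0.11 to 0.29 with the trend and -0.22 to 0.41 without it. Without the trend, that of Tl was -0.44 to 0.35 and that of dl -0.49 to 0.006. That of Traf6 was -0.12 to 0.17 without the trend, beside -0.18 to 0.22 with it.

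**Figure D2:**
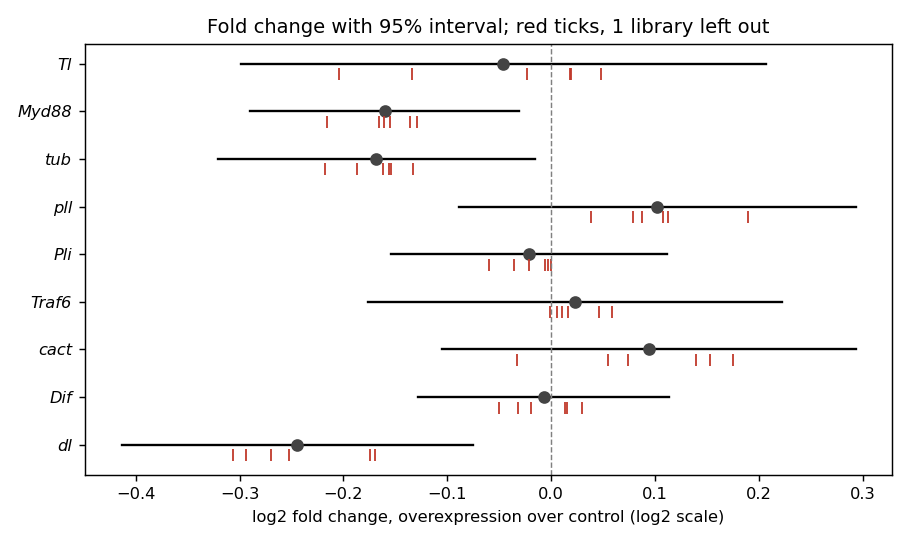
Log2 fold change of each gene (dots) in overexpressing over control flies, with the 95% interval from limma (black lines). Red ticks give the 6 values obtained when 1 library is left out. The interval excludes 0 for dl, Myd88 and tub before adjustment for the number of genes tested, and the ticks of Tl, cact, Dif and Traf6 fall on either side of 0.

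The receptor gene Tl varied more within the overexpressing flies than between the genotypes. It had 940, 1096 and 1161 normalized read counts in control replicates 1 to 3 and 940, 1280 and 903 in overexpression replicates 1 to 3. The overexpression group thus held the highest and the lowest library. The log2 fold change was -0.046 ± 0.12 (SE, limma adjusted p = 0.865). It was -0.20 without overexpression replicate 2 (adjusted p = 0.193 from limma), and it was 0.019, 0.018 and 0.048 without control replicate 3, overexpression replicate 1 and overexpression replicate 3.

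Myd88 encodes the adaptor that joins the receptor through a TIR domain. Its normalized read counts were 1231, 1241 and 1223 in the control flies and 1055, 1066 and 1191 in the overexpressing flies. The control libraries had a coefficient of variation of 0.74%, and each overexpression library was below all of them. The log2 fold change of -0.16 ± 0.06 (SE, 95% interval -0.29 to -0.031) did not pass the threshold (adjusted p = 0.128 from limma). Overexpression replicate 3 was the library nearest to the controls. Without it the value was -0.22 and passed (adjusted p = 0.0469 from limma). The other fits with a library left out did not call Myd88. Among them, the value was -0.13 without overexpression replicate 1 (adjusted p = 0.314 from limma) and -0.14 without overexpression replicate 2 (adjusted p = 0.271 from limma).

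Tube, the partner of MyD88 that brings in Pelle through its death domain, had a similar pattern. The gene tub had 589, 607 and 539 normalized read counts in control flies and 505, 528 and 510 in overexpressing flies. The groups were apart, with 539 and 528 in their nearest libraries. The log2 fold change was -0.17 ± 0.07 (SE, limma adjusted p = 0.178), and leaving out single libraries gave -0.22 to -0.13 without a call.

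The kinase gene pll had 401, 399 and 388 normalized read counts in control flies and 439, 465 and 376 in overexpressing flies. Overexpression replicate 3 was below every control library and the other two were above, so the groups overlapped. Its log2 fold change was 0.10 ± 0.088 (SE, limma adjusted p = 0.551), or 0.19 without overexpression replicate 3 and 0.038 without overexpression replicate 2, again without a call.

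Pli encodes Pellino, a RING-type E3 ubiquitin ligase that binds Pelle, and its values were among the steadiest. They were 758, 773 and 790 normalized read counts in control flies and 744, 740 and 804 in overexpressing flies, with overlapping groups. The log2 fold change was -0.021 ± 0.061 (SE, limma adjusted p = 0.882), and 0.02 when reads were scaled to the library total. Traf6 encodes a TRAF-family adaptor, and it had 241, 237 and 251 normalized read counts in control flies against 251, 255 and 235 in overexpressing flies. Its log2 fold change was 0.023 ± 0.092 (SE, limma adjusted p = 0.915).

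The inhibitor gene cact had 2489, 2851 and 2557 normalized read counts in control flies and 2506, 3344 and 2632 in overexpressing flies. Only overexpression replicate 2 stood above the range of the controls. The log2 fold change of 0.094 ± 0.092 (SE, limma adjusted p = 0.606) rested on that library and was -0.033 without it. As background, cact is itself a transcriptional target of Toll signalling.

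Of the NF-κB genes of the pathway, Dif had the log2 fold change nearest to 0 among the 9 members and dl the one farthest from it. Dif, the main factor of the adult Toll response, had 2145, 1961 and 2140 normalized read counts in control flies and 1967, 2105 and 2142 in overexpressing flies, so that the groups covered the same range. Its log2 fold change was -0.0072 ± 0.056 (SE, limma adjusted p = 0.959), a sign that turned with library-total scaling (0.033) and quantile normalization (0.022). Dorsal, best known for patterning the embryo, also acts in immunity. Its gene dl had 1491, 1773 and 1542 normalized read counts in control flies and 1223, 1365 and 1469 in overexpressing flies. Every overexpression library was below every control library, with 1491 and 1469 in the nearest libraries.

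The log2 fold change of dl was -0.24 ± 0.078 (SE, 95% interval -0.41 to -0.075), the largest in size among the 9 genes, and 11.7% of all genes tested had a lower value. It did not pass the threshold (adjusted p = 0.0763 from limma), nor with DESeq2 (adjusted p = 0.0687) or edgeR (adjusted p = 0.0798). Without overexpression replicate 3 the value was -0.31 and passed (adjusted p = 0.0456 from limma). Without control replicate 2, the highest library, it was -0.17 (adjusted p = 0.221 from limma), and without overexpression replicate 1, the lowest library, also -0.17 (adjusted p = 0.248 from limma).

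**Figure D3:**
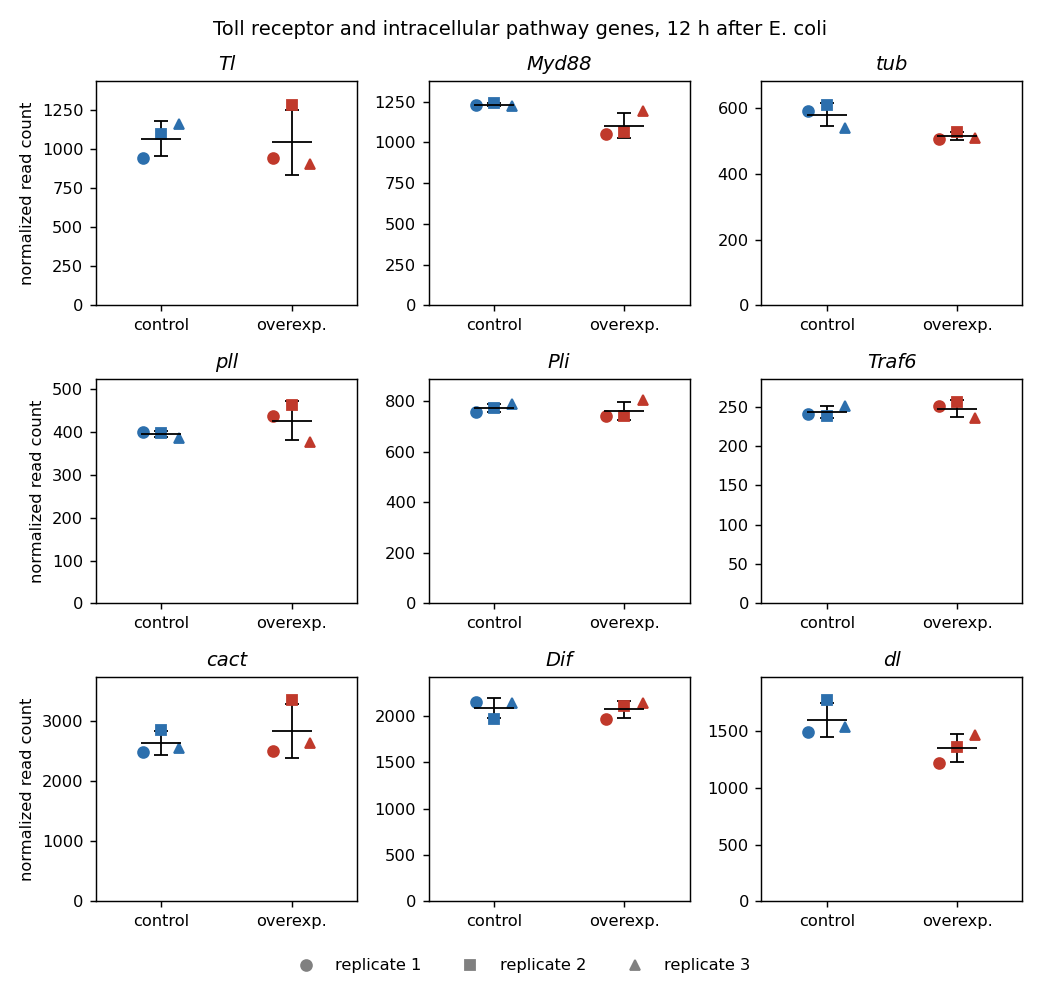
Normalized read counts of the 9 genes by library, in control (blue) and overexpressing (red) flies. Symbols give the replicate number, the wide bar the mean and the error bar the SD of 3 libraries, and each axis starts at 0. The groups are apart for Myd88, tub and dl on this scale and overlap for the other 6 genes, and overexpression replicate 2 (red squares) is the highest library of Tl, pll, Traf6 and cact.

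Ratios of levels within a library do not depend on how libraries are scaled. The ratio of dl to Dif in FPKM was 0.615, 0.801 and 0.638 in control flies and 0.551, 0.574 and 0.607 in overexpressing flies. The groups did not overlap (exact two-sided permutation test over libraries, p = 0.1, adjusted over 3 ratios 0.15), and 0.1 is the smallest p that 3 libraries against 3 allow. The difference of the means was -0.11, and -0.05 without control replicate 2. Since Dif hardly differed between the genotypes, this ratio repeats the difference of dl given above, and its p is not a separate test. The ratio of cact to the sum of Dif and dl was 1.29 ± 0.0833 in control flies and 1.48 ± 0.219 in overexpressing flies (SD, n = 3 each), with overlapping groups (exact two-sided permutation p = 0.2, adjusted 0.2). Its difference was 0.19, and 0.071 without overexpression replicate 2.

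Rel, which acts in the Imd pathway beside these factors, rose. It had 5328, 6546 and 6119 normalized read counts in control flies and 7801, 9704 and 7293 in overexpressing flies, and the log2 fold change was 0.46 ± 0.097 (SE, limma adjusted p = 0.0115). The gene was not called without control replicate 1 (0.37) or without the intensity trend. Over the sum of Dif and dl in FPKM, the ratio of Rel was 2.5, 3.02 and 2.84 in control flies and 4.16, 4.77 and 3.45 in overexpressing flies. The groups did not overlap (exact two-sided permutation p = 0.1, adjusted 0.15). The ratios with cact and Rel were chosen after their values were seen. The ratio of Rel repeats the differences of Rel and dl given above, so its p is not a separate test.

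**Figure D4:**
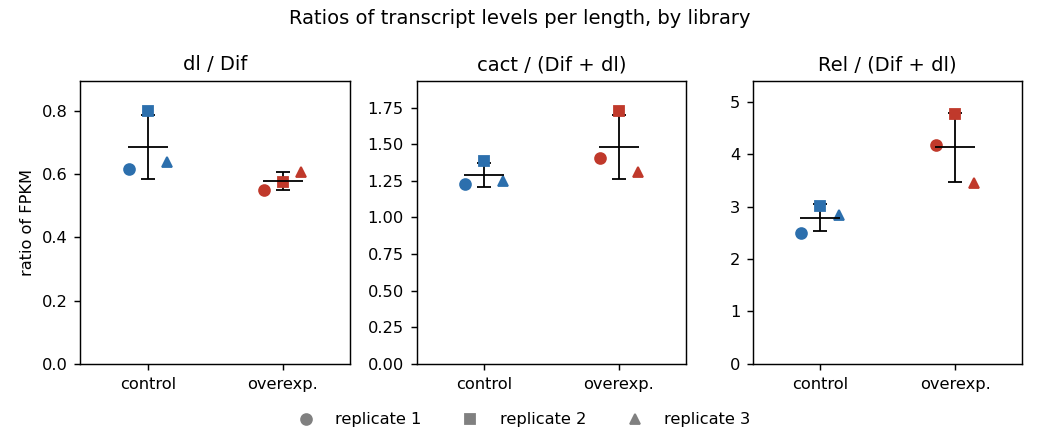
Ratios of levels in FPKM within each library for dl to Dif, cact to the sum of Dif and dl, and Rel to that sum, in control (blue) and overexpressing (red) flies. Symbols give the replicate number, the wide bar the mean and the error bar the SD of 3 libraries. The groups are apart for dl to Dif and for Rel to the sum, and overlap for cact to the sum.

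Overexpression replicate 2 was the highest of the 6 libraries for 4 of the 9 genes, Tl, pll, cact and Traf6, while 19.8% of all genes tested had their highest value there. In the same library Rel and Drs, the antifungal peptide gene Drosomycin, were also at their highest, with 9704 and 136144 normalized read counts. Without that library 0 of the 9 genes were called by limma, and the 3 with an unadjusted p under 0.05 were dl, tub and Tl, while Myd88 no longer had one. The part of this library's composition in these values was not tested.

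Because the RNA is labelled as that of flies and not of a tissue or cell type, fewer cells of a type and less RNA per cell cannot be told apart. Fat body and hemocytes are the main immune tissues of the fly, and several of their markers moved in the direction of dl. The marker calls are from limma with the intensity trend and all libraries, and how they hold under the alternatives was not examined. Of all genes tested, 3.18% were upregulated and 5.24% downregulated. Of 5 fat body markers tested, 3 fell and none rose, namely Fbp1 (log2 fold change -1.69), Lsd-1 (-0.75) and the apolipophorin gene listed as Rfabg (-0.42), and their summed level was 341 to 383 FPKM in control flies and 228 to 302 FPKM in overexpressing flies. Of 8 hemocyte markers, NimC1, Pxn, Cg25C and vkg fell and Hml rose, with a sum of 195 to 202 FPKM against 169 to 183 FPKM. No marker of either list was at 0 in all libraries. Among the other markers tested, 7 of 8 photoreceptor genes rose (summed level 2545 to 2639 FPKM against 3176 to 3509 FPKM), 3 of 7 flight muscle genes fell (3021 to 3160 FPKM against 2573 to 2894 FPKM), 1 of 5 midgut genes rose and 1 fell, and no neuron or testis gene was called. The part of these tissues in the values of dl, Myd88 and tub was not tested.

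The genes around the 9 members were called in small numbers, and of those named here as called only CG5778 was also called without the intensity trend of limma. Of 18 tested genes of the extracellular cascade, 3 rose, where 3.18% of all genes tested were upregulated, and 1 fell, where 5.24% were downregulated. The risen genes were the recognition protein gene PGRP-SD (0.65) and the serine protease genes Hayan (0.36) and spirit (0.38), and the fallen gene was GNBP3 (-0.34), which encodes a recognition protein for fungal β-glucan. The median log2 fold change of that list was 0.087. The number that rose was 1 without control replicate 1, control replicate 3 or overexpression replicate 2, 2 without overexpression replicate 1, 6 without overexpression replicate 3, and 5 with library-total scaling. The number that fell was 2 without overexpression replicate 2. Hayan was not called without control replicate 1 or 3 or overexpression replicate 2 (0.26 to 0.37), and spirit was not called without control replicate 1 or 3 or overexpression replicate 1 or 2 (0.29 to 0.35). The ligand gene spz had 838 ± 124 normalized read counts in control flies and 1062 ± 107 in overexpressing flies (SD, n = 3 each). Its log2 fold change was 0.35 and was not called (limma adjusted p = 0.0552), but it was called upward with library-total scaling, quantile normalization and DESeq2 and without control replicate 2 or overexpression replicate 3. None of the 8 tested genes of the other Toll receptors and Spätzle paralogs was called, where 8.42% of all genes tested were, and the median log2 fold change of that list was -0.089.

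Of 16 tested modulators of Toll and Dorsal signalling, only krz was called by limma with the size factors and the filter of 0.5 FPKM, and the median log2 fold change was -6.2e-05. It encodes the β-arrestin Kurtz, which restrains the pathway, and it fell from 1046 ± 47.1 to 859 ± 102 normalized read counts (SD, n = 3 each). Its log2 fold change was -0.29 (limma adjusted p = 0.0421). That call was lost with library-total scaling (-0.25), with quantile normalization (-0.28) and in 5 of the 6 fits with a library left out, all but that without overexpression replicate 2 (-0.33 to -0.24). The gene cactin, whose product binds Cactus, was just short of a call in that fit (log2 fold change 0.31, limma adjusted p = 0.0532). It was called upward by edgeR (0.31, adjusted p = 0.0457), and by limma with library-total scaling (0.35, adjusted p = 0.0331) or a filter of 5 FPKM (0.31, adjusted p = 0.0453), and over all alternatives its adjusted p ran from 0.0331 to 0.15.

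Peptide genes that Toll signalling is known to induce moved both ways. Of 17 tested, 3 rose, against 3.18% of all genes tested, and 1 fell, against 5.24%. With each library left out the number that rose was 1 to 3 and the number that fell 1 to 2. The Bomanin gene IM23 (BomBc1) rose by 0.56 on the log2 scale, the Daisho gene IM14 (Dso2) by 0.33 and the Baramicin gene CG33470 by 0.23, while CG5778, a Bomanin gene now named BomT3, fell by 0.62. IM14 lost its call in 4 fits with a library left out, those without control replicate 1 or 3 or overexpression replicate 1 or 3 (0.23 to 0.34), and also with a filter of 5 FPKM or a pseudocount of 0.01. CG33470 lost it in 5, all but that without control replicate 2 (0.17 to 0.27), and also in edgeR and with a pseudocount of 0.01. CG33470 has a near-identical copy whose reads may be shared. Drs itself had 101537 ± 6835 normalized read counts in control flies and 121474 ± 13457 in overexpressing flies (SD, n = 3 each). Its log2 fold change was 0.26 and was not called (limma adjusted p = 0.139), but it was called by DESeq2 (adjusted p = 0.0113) and by limma without overexpression replicate 3 (adjusted p = 0.0423). In the other direction, CG15068 was not called by limma with all libraries. It was called downward by limma voom (-0.41, adjusted p = 0.0488) and by limma without overexpression replicate 1 (-0.58, adjusted p = 0.00256). The median of the list was -0.018. Of 14 genes of the Imd intracellular cascade, PGRP-LC (0.39), Diap2 (0.21) and Rel (0.46) rose and none fell, beside the same shares of all genes tested, with a median of 0.062. Without control replicate 1 only 1 of these 14 genes rose, and without overexpression replicate 3 4 rose, imd among them. Diap2 was not called without control replicate 1 or 3 or overexpression replicate 2 (0.18 to 0.21). Whether the share of calls differs between the Toll and the Imd genes was not tested.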

How the data were processed

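The deposited table is named FPKM, but its signal values are reads per gene that the authors divided by a size factor, 1 for each library. Per the labels, reads were aligned with HISAT2 2.0.5 to dm6 and counted with featureCounts 1.5.0-p3. The authors' table also holds log2 fold changes and p-values of their own comparison and group means, which were not used. Undoing that division gave whole reads for 100% of the values (tolerance 0.01), and FPKM were computed from these reads, the deposited gene lengths and the library totals. Libraries differed by more than sampling noise (chi-square per degree of freedom 5.21 to 9.38 between replicates).

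Genes were filtered on a mean of 0.5 FPKM or more and tested with limma 3.58.1 on log2(normalized count + 1), with an intensity trend, Benjamini-Hochberg adjustment over 13196 genes and no replicate block. Fold changes are on that scale. limma voom, edgeR 4.0.16 and DESeq2 1.42.0 on the recovered reads, other pseudocounts (0.1 and 0.01), filters, scalings, a replicate block and each library left out were alternatives, run in R 4.3.3 and Python 3.11.15. The fits were tested on simulated data with planted changes larger than any seen for the 9 genes. That test therefore does not tell whether changes as small as theirs would be found. The named genes are the 9 members, lncRNA-CR33942, genes that overlap members and, of each list, every gene called. Other genes named, such as spz, cactin, Drs, CG15068, 18w, Toll-7 and the individual markers, were chosen after their values were seen. The members and lists were chosen with earlier results of these data known, and the list of peptide genes and of the Imd cascade hold genes the study discusses from these libraries.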

Additional observations from a re-analysis of the deposited data

How the results depend on the processing

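Of 161 fold changes of the 9 genes under the alternatives, 147 had the same sign and the same call, 11 changed sign and 3 newly passed it. Traf6 was not among the genes tested with a mean of at least 5 FPKM. No member was called upward under any alternative run. Downward, 1 member, dl, was called with the replicate number as a block (-0.24, adjusted p = 0.0245 from limma), and with each library left out the count ran from 0 to 2, the 2 being dl and Myd88 without overexpression replicate 3. No label says that the replicate numbers pair the libraries. The deviations of same-numbered libraries correlated by -0.034, 0.052 and -0.036, and not every library correlated best with its own number. These correlations are over all genes tested, so they cannot tell whether some genes share an effect of the replicate number. The block gave 517 upregulated genes and 846 downregulated ones. Among the lists it called 5 genes of the extracellular cascade upward, spz and nec added, and 4 peptide genes upward and 3 downward.

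Library-total scaling turned Dif to 0.033 and Pli to 0.0196, moved the median of all genes to 0.046, and gave 632 upregulated and 503 downregulated genes, beside 420 and 691 with the size factors. Quantile normalization turned Dif to 0.022. With no intensity trend, limma called 94 genes upward and 99 downward. With each library left out, upregulated genes ran from 201 to 393 and downregulated genes from 328 to 618. In these fits Tl ran from -0.20 to 0.048, cact from -0.033 to 0.18, Dif from -0.0497 to 0.0295 and Traf6 from -0.00083 to 0.059. The cause of each change was not tested. Differences of the size seen for dl lie near the limit of what 3 libraries against 3 resolve here. In limma with the intensity trend, the standard errors of the 9 genes were 0.056 to 0.12 on the log2 scale.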
